A study of Mus musculus with 9 samples.

Results

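The Twist-related genes examined here are 8 mouse genes for basic helix-loop-helix (bHLH) transcription factors of mesoderm and mesenchyme, Twist1, Twist2, Hand1, Hand2, Tcf15, Tcf21, Scx and Msc, out of 21887 protein-coding genes. They were chosen by name. A ChIP-seq peak was counted for a gene when its summit lay inside the gene body, or, outside all genes, when that gene was the nearest protein-coding gene within 100 kb. The peaks map where TWIST1 antibody enriched chromatin of embryoid bodies, the cell aggregates in which embryonic stem cells begin to differentiate, collected after 3 days; the design text calls the cells neuroepithelium and the sample labels call them embryoid bodies. The Twist1-OE cells were Twist1-/- and carried a doxycycline-inducible Flag-Twist1 cassette. The Twist1-KO cells were Twist1-/- without the cassette. Doxycycline was given to both for 16 h, so the control cells also received the drug and also lacked the endogenous protein. The labels give C57BL/6 as the strain of every sample. They do not say how many clones of each line were used, and peak lists measure no expression, so the labelled cell type could not be checked against markers.

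Factors of this family bind DNA as dimers, usually with the ubiquitous E-proteins, at the 6-base E-box CANNTG, where N is any base. Id proteins take up E-proteins and so compete with factors of this family for these partners. Several members act in tissues that form from or beside one another: Twist1 and Twist2 in head and dermal mesenchyme, Hand1 and Hand2 in heart, limb and pharyngeal arches, Tcf15 in somites, Tcf21 in the epicardium and in kidney and lung mesenchyme, Scx in tendon and Msc in jaw muscle.

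The series holds 4 OE ChIP libraries (numbers 1 to 4), 2 KO ChIP libraries (numbers 2 and 3), 1 KO input and 2 OE inputs; the OE inputs were not analysed here. On the 21 main chromosomes the lists held 14078 to 106750 peaks in OE libraries, 94 and 62 in KO libraries and 1642 in the KO input. No read totals were at hand, so the background pileup, recovered from each peak's fold and p-value, serves as a rough guide to depth. It may also depend on the caller's control and settings, which are not known. OE libraries 1 and 4 had 1.00 and 1.20 background fragments, against 5.38 and 5.29 in OE libraries 2 and 3. The KO libraries 2 and 3 had 4.73 and 5.09, and the input had 6.46. OE libraries 1 and 4 thus stand apart from OE libraries 2 and 3, and results are given for each library. Fold enrichment below is the authors' value for a single peak. Its percentile is its mid-rank in the same list: the share of peaks with a lower fold, with peaks of equal fold counted in part. Statements on which libraries are high or low rest on percentiles, since a fold depends on the background of its library. A percentile in turn depends on how many weaker peaks its list holds, and the lists differ in length. Regions found in all 4 OE libraries and in no control list numbered 10375. Their mean percentile had a median of 64.0 over OE libraries 1 and 4, and of 90.3 over OE libraries 2 and 3.

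All 8 genes had TWIST1 peaks in OE libraries 2 and 3, as had 80.6% and 77.5% of all protein-coding genes, and none had a peak in KO cells. A site found in every OE library and in no control list was present at 5 of the 8, against 30.3% of all protein-coding genes. Twist1 itself, whose sequence the inducible cassette carries, is among the 5. The 8 genes together received 16, 66, 53 and 11 peaks in OE libraries 1 to 4, against 0 and 0 in KO libraries 2 and 3 and 0 in the KO input. The groups do not overlap. The spread among OE libraries went with list length: when each list was limited to its 14078 peaks of highest −log10 p, the 8 genes had 13, 12, 9 and 11 peaks in OE libraries 1 to 4. On the log2(peaks + 1) scale the means were 4.87 ± 1.22 in OE (SD, n = 4) and 0 ± 0 in KO (SD, n = 2), a difference of 4.87. The two-sided exact permutation test over 15 splits gave p = 0.0667, the smallest this design allows, so it cannot pass 0.05. The KO lists were short: only 0.224% of all protein-coding genes had a peak in either KO list, and 5.29% had one in the input list. Whether the KO zeros reflect this shortness or a lack of binding at the 8 genes was not tested. A count of 0 of 94 and of 62 peaks allows a share of up to 3.19% and 4.84%, far above the 0.0607% to 0.0781% that the 8 genes took of the OE lists. These limits cover counting error only. At sites with the usual background a KO peak also needed a fold of about 3.66 in library 2 and 3.61 in library 3 to be listed. The listed KO peaks had median folds of 3.51 and 2.88, so these levels did not hold at many of the sites listed. Of the peaks at the 8 genes, 53 of 66 in OE library 2 exceeded the level of either KO library. In OE library 3, 43 of 53 exceeded the level of KO library 2 and 46 that of KO library 3.

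**Figure D1:**
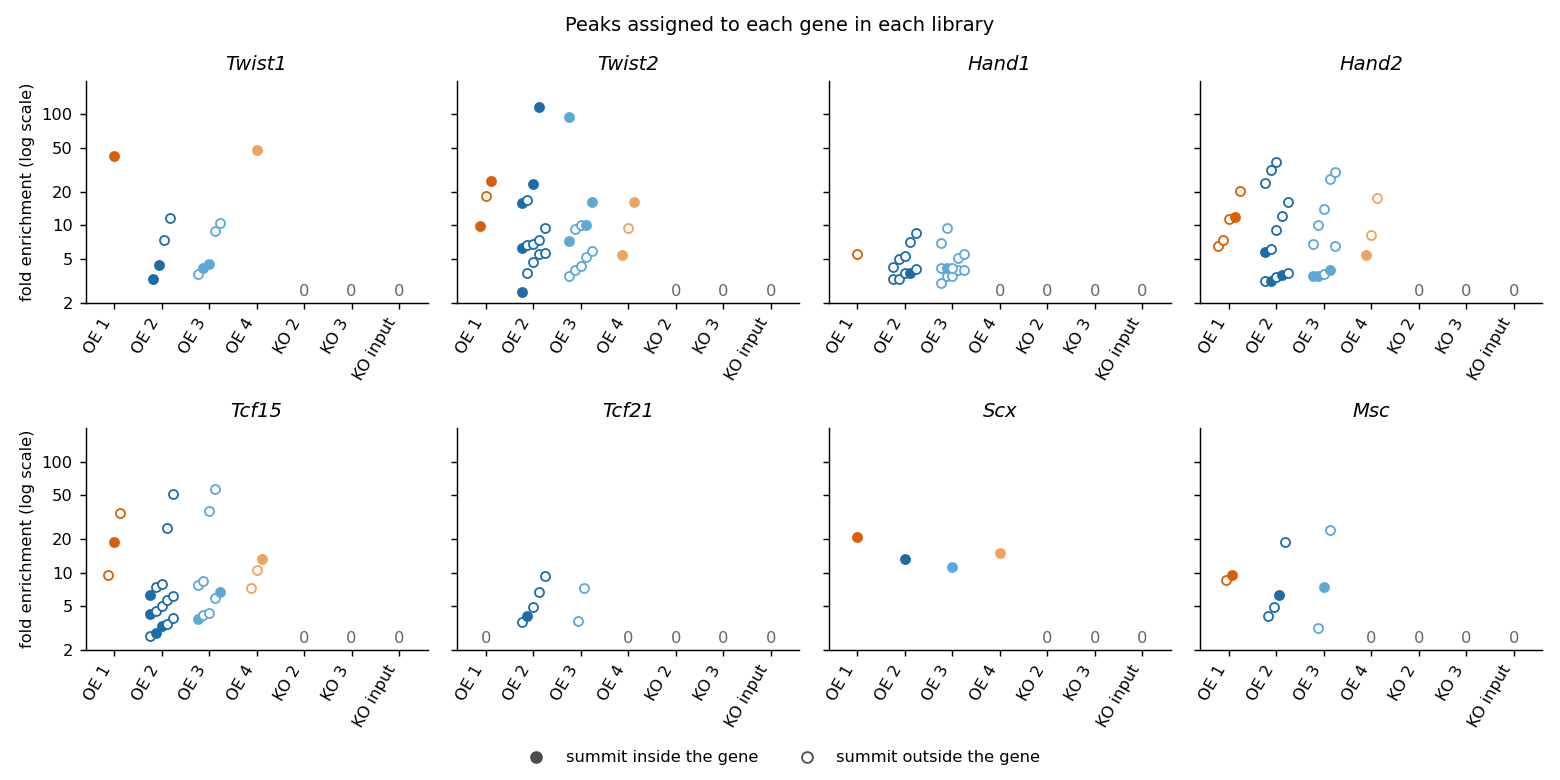
Fold enrichment (log scale) of every peak assigned to each of the 8 genes in the 4 OE ChIP, 2 KO ChIP and 1 KO input libraries; each point is 1 peak, filled where its summit lies inside the gene, and 0 marks a library with no peak. All points are in OE libraries, from 16 peaks in OE library 1 and 11 in OE library 4 to 66 and 53 in OE libraries 2 and 3.

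Peaks in every OE library were found at 5 of the 8 genes, against 35.1% of all protein-coding genes, and the same 5 had none in KO or input, against 31.3%. Counted by library, 7, 8, 8 and 5 of the 8 genes had a peak in OE libraries 1 to 4, against 47.3%, 80.6%, 77.5% and 37.4% of all protein-coding genes. OE peaks sharing at least 1 bp were merged, which gave 64 regions at the 8 genes. Reproducible regions are those with a peak from each of the 4 OE libraries and no overlapping KO or input peak. There were 10 such regions at 5 genes: 1 at Twist1, 2 at Twist2, 3 at Hand2, 3 at Tcf15 and 1 at Scx. Hand1, Tcf21 and Msc had none. These counts include the region in the Twist1 body. There, signal from the cassette, which the KO cells lack, cannot be told apart from signal of the endogenous locus. Of all protein-coding genes, 30.3% had at least 1. With the lists limited to equal length there were 6 regions at 4 genes. Without OE library 4 the 8 genes had 16 regions, because Hand2 then had 5, Twist2 3, Msc 2 and Hand1 1. The assignment rule gives the 8 genes 868 kb of genome, and 4.27 regions would lie there at the density found around all protein-coding genes, 4.92 per Mb. Of the 64 merged regions, 32 were found in exactly 2 libraries, and in each of these 32 cases the libraries were OE 2 and OE 3. Another 7 were found in 3 libraries and 15 in 1 library. Among all 119237 merged OE regions, 45.3% were of OE libraries 2 and 3 alone.

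**Figure D2:**
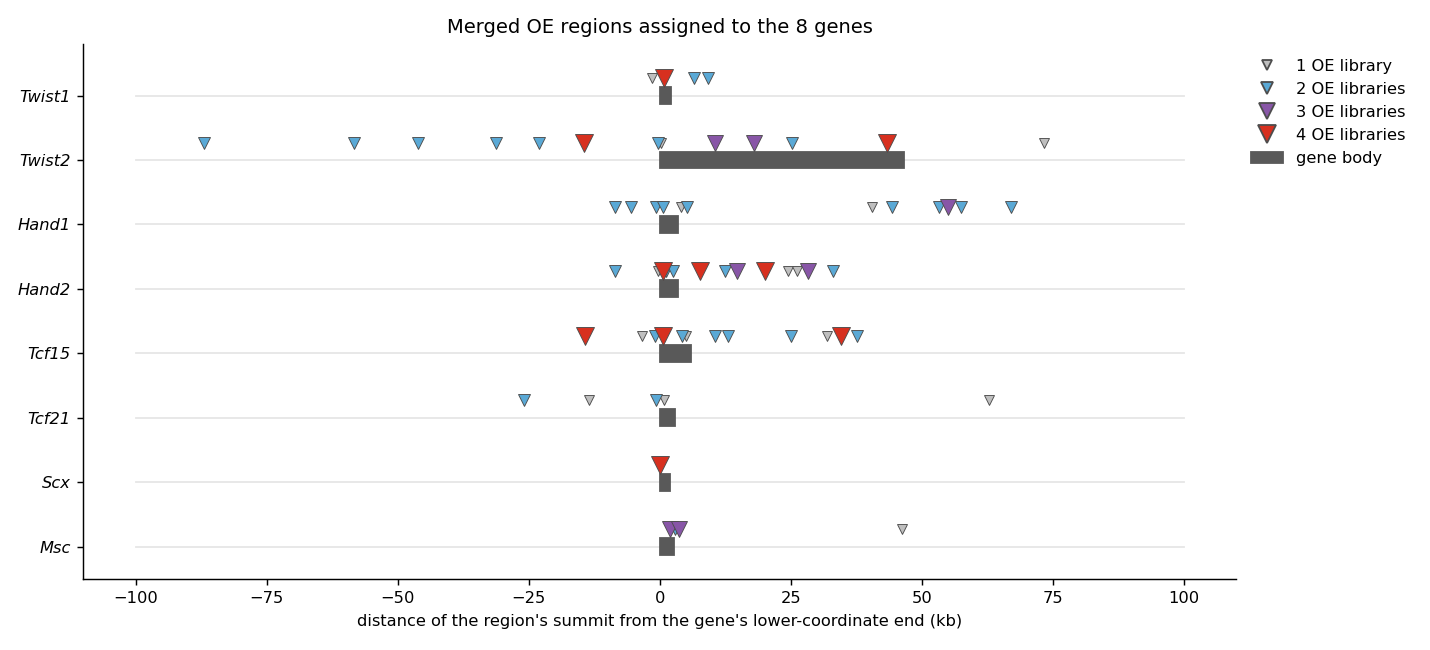
Position of the 64 merged OE regions assigned to the 8 genes, as the distance (kb) of the summit from the lower-coordinate end of the gene, with larger triangles for regions found in more OE libraries and a dark bar for the gene body. The 10 regions of 4 libraries lie at Twist1, Twist2, Hand2, Tcf15 and Scx; those of Hand1 and Msc reach 3 libraries and those of Tcf21 reach 2.

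Twist1 (chromosome 12, 33957671 to 33959831, mm10, plus strand) is the gene that was overexpressed. Its body held a peak in all 4 OE libraries, and its rank was very different between them. In OE library 1 the peak had a fold of 41.9 from 83 fragments at the summit, and in OE library 4 it had 48.1 from 105 fragments. In OE libraries 2 and 3 the strongest peak of the same region had folds of 4.39 and 4.45, each from 27 fragments over a higher background. The region spans 33957339 to 33959091, and its percentiles were 94.6, 37.6, 37.0 and 96.7 in OE libraries 1 to 4. OE libraries 1 and 4 are thus high and OE libraries 2 and 3 low, with no overlap. The mean percentile of OE libraries 1 and 4 exceeded that of OE libraries 2 and 3 by 58.3 points, and 124 of the 10375 reproducible regions (1.20%) had a larger excess. Among regions within 1 kb of a gene end, where the Twist1 summit lies, 88 of 3171 (2.78%) did.

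Peaks at the Twist1 gene shared an end in 3 of the 4 OE libraries. In OE library 1 the peak ran from 13 bp before the gene start to 927 bp after it. In OE library 4 it ran from 23 bp to 927 bp after the start. A narrower peak of OE library 3 ran from 685 bp to the same base, 927 bp after the start, while the peak of OE library 2 ran on to 1420 bp. Ends that matched to the base in at least 3 OE libraries occurred in 5 of the 10375 reproducible regions (0.0482%). Signal from the inducible cassette, which carries Twist1 sequence, and signal from the endogenous locus cannot be told apart in a peak list.

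Outside its body, Twist1 had peaks in OE libraries 2 and 3 alone. The stronger lay 4350 bp beyond the gene end in OE library 2, with a fold of 11.6, and 4340 bp beyond it in OE library 3, with 10.5. Another lay 6961 bp beyond the end in OE library 2, with 7.37, and 6977 bp in OE library 3, with 8.90. In these 2 libraries both outrank the peaks in the gene body. The neighbouring bHLH gene Ferd3l, 28361 bp below Twist1, had no reproducible region. Hdac9, a histone deacetylase gene whose body is known to hold Twist1 enhancers and which lies 87749 bp above Twist1, had 2. By the within-list percentile of the strongest assigned peak in each OE library, the genes nearest to Twist1 among 7673 with a peak in all 4 were Rb1cc1, Fam102a and Itgb4, at Euclidean distances of 2.10, 2.84 and 3.25 percentile points over 4 libraries. For OE libraries 2 and 3 this measure takes the Twist1 peak beyond the gene end.

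Promoter letters are given for Twist1, Twist2 and Hand2, the genes of the set with a sequence in the table and an OE peak over that window. They are the 250 bases before the start, plus strand, from RefSeq (GRCm38.p6, which shares its main-chromosome coordinates with mm10). Capitals mark E-boxes.
Twist1, chr12:33957421-33957670: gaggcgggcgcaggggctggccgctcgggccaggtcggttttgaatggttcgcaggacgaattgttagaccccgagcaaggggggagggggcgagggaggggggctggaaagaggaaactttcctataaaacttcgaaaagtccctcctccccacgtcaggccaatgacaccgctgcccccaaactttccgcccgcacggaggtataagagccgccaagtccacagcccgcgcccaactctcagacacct
Twist2, chr1:91801211-91801460: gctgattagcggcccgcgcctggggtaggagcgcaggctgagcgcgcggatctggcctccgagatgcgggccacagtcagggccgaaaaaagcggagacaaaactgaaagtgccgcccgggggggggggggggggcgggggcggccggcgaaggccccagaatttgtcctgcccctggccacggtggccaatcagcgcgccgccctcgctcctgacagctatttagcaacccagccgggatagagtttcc
Hand2, chr8:57320733-57320982: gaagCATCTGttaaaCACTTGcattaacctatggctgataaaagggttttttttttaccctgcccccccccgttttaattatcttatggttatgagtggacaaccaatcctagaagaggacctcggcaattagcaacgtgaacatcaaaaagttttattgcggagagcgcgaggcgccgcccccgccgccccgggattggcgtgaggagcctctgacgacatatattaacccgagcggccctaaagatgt
CANNTG was searched on these letters, which covers both strands because its reverse complement has the same form. The Twist1 and Twist2 windows hold no CANNTG. The Hand2 window holds CATCTG from base -246 and CACTTG from base -235, counted from the gene start. Both lie before 57320876, where the reproducible region at the Hand2 start begins. The only OE peak over them was in OE library 2, with a fold of 3.13. A CANNTG is found in 66.2% of 32851 windows of this length, and CATCTG or its reverse complement CAGATG in 14.4%. Of windows overlapped by a reproducible region, 57.7% hold a CANNTG, against 67.4% of the others. The Tcf21 window, also in the table, holds none and no OE peak overlapped it. The table held 4 of the 8 genes. Letters under the summits were not analysed here.

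Twist2 (chromosome 1, 91801461 to 91848034, plus strand), the close paralogue of Twist1, carried the site with the highest percentiles of the 10 in OE libraries 2 and 3. This region, at 91844133 to 91845311, lies inside the gene, 43361 bp after its start and 3212 bp before its end. Its folds were 24.95, 117, 95.03 and 16.3 in OE libraries 1 to 4, and its percentiles 86.1, 99.3, 99.2 and 76.6. OE libraries 2 and 3 are high and OE libraries 1 and 4 lower, the reverse of Twist1. That direction is the usual one. The mean percentile of OE libraries 1 and 4 minus that of OE libraries 2 and 3 was -17.9 points. Over all 10375 reproducible regions the median was also -17.9, and 26.3% ranked higher in OE libraries 1 and 4. The 4 summits of this Twist2 region lay within 24 bp of each other. Another reproducible region lay 14409 bp before the start, at 91786895 to 91787490, with folds of 18.5, 6.74, 5.24 and 9.53 and percentiles of 78.2, 67.7, 50.9 and 48.8 in OE libraries 1 to 4. The gene had 13 merged regions in all. Those inside the body at 91811752 and 91819221 were found in 3 libraries, the first not in OE library 4 and the second not in OE library 1. At the Twist2 start itself, OE libraries 2 and 3 alone had a peak with its summit upstream, 334 and 370 bp before the start, with folds of 4.70 and 5.88. Hdac4, a histone deacetylase gene 80745 bp above Twist2, had 1 reproducible region.

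Hand2 (chromosome 8, 57320983 to 57324517, plus strand), needed for the right ventricle, limb and pharyngeal arches, had a row of sites on its downstream side. The region 4103 bp beyond the gene end, at 57328080 to 57329404, had folds of 20.5, 37.5, 30.0 and 17.7 in OE libraries 1 to 4, from 40, 238, 188 and 38 fragments. Its percentiles were 81.1, 97.1, 96.1 and 79.5, and the 4 summits lay within 14 bp. The region 16479 bp beyond the end, at 57340635 to 57342110, had folds of 11.5, 31.5, 26.4 and 8.17 and percentiles of 60.5, 96.4, 95.4 and 38.5, with summits within 9 bp. Regions 11258 and 24861 bp beyond the end were found in OE libraries 1, 2 and 3 and not in OE library 4. The regions at 11258, 16479 and 24861 bp lie inside Hdnr, a long non-coding RNA gene downstream of Hand2.

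The Hand2 gene start gave a weaker and more diffuse site. The region at 57320876 to 57322016 covers the start, and its folds were 11.98, 3.60, 3.50 and 5.45 in OE libraries 1 to 4. In OE libraries 2, 3 and 4 these were among the weakest peaks of the list, with percentiles of 18.7, 14.5 and 10.1, against 62.5 in OE library 1. The summits were spread over 533 bp. The strictest lower limit of −log10 p among the ChIP lists was 7.48, that of KO library 2. With it applied to every ChIP library, a setting chosen after seeing the data, Hand2 kept 2 regions in place of 3.

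Hand1 (chromosome 11, 57828713 to 57832147), which acts in heart and trophoblast, had 12 merged regions but none in all 4 libraries. It had 1, 10, 12 and 0 peaks in OE libraries 1 to 4. The only region of 3 libraries lay 51556 bp above the gene, with fold values of 5.49, 4.07 and 4.13 in OE libraries 1, 2 and 3. The highest folds of OE libraries 2 and 3 were 8.46, at 54030 bp above it, and 9.54, at 54034 bp. A much stronger region, at 57911523 to 57912788 with folds of 66.9, 218, 200.4 and 37.7, lies in the same gap between genes. It is 79937 bp from Hand1 and 61334 bp from Larp1, and was therefore counted for Larp1, which encodes an RNA-binding protein.

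Tcf15 (chromosome 2, 152143056 to 152149097), also called paraxis and needed for epithelial somites, had 3 reproducible regions in a short stretch. The region 14256 bp below the gene, at 152128355 to 152129313, had folds of 34.4, 50.5, 56.9 and 10.4 in OE libraries 1 to 4 and percentiles of 92.2, 98.1, 98.3 and 54.4. OE library 4 is the low one. That region is 17424 bp from Srxn1, a peroxiredoxin repair gene, little farther than from Tcf15. The region 28593 bp above the gene, at 152176499 to 152179004, had folds of 9.48, 25.4, 35.6 and 7.26 and percentiles of 50.5, 95.2, 96.96 and 30.5. The region inside the gene, at 152143232 to 152144229, had 19.0, 4.23, 3.81 and 13.2, and its percentiles of 78.9, 34.2, 22.2 and 66.7 were higher in OE libraries 1 and 4. A further region close by, at 152120227 to 152121619, was counted for Srxn1 and had folds of 27.9, 49.2, 79.0 and 24.5.

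Scx (chromosome 15, 76457411 to 76459468), the tendon factor scleraxis, lies inside the ribosome biogenesis gene Bop1, so its region at 76457184 to 76458383 counts for both. Its folds were 21.0, 13.3, 11.1 and 15.0 in OE libraries 1 to 4, and its percentiles, 81.8, 88.3, 84.2 and 72.8, were the most even of the 10 regions. The summits nevertheless fell into pairs. Those of OE libraries 1 and 4 were 2 bp apart, those of OE libraries 2 and 3 were 7 bp apart, and the pairs lay on either side of a gap within a spread of 287 bp.

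Msc (chromosome 1, 14753344 to 14756089), a repressor also called MyoR, had 2, 4, 3 and 0 peaks in OE libraries 1 to 4. For the region 922 bp above the gene, fold enrichment was 8.48 in OE library 1, 18.7 in OE library 2 and 24.0 in OE library 3, with percentiles of 43.7, 92.7 and 94.8. A region inside the gene had folds of 9.48, 6.27 and 7.47 in these libraries, and its percentiles of 50.5, 63.9 and 71.4 were lowest in OE library 1. Tcf21 (chromosome 10, 22817263 to 22820143) had 0, 5, 2 and 0 peaks, the fewest libraries of any of the 8 genes. Its highest folds were 9.25 in OE library 2, at 25889 bp below the gene, and 7.31 in OE library 3, at 25873 bp.

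Ordered by the mean percentile of their best region over 4 OE libraries, the genes ran Twist2 (90.3 ± 11.03), Hand2 (88.5 ± 9.46), Tcf15 (85.7 ± 21.1), Scx (81.7 ± 6.57) and Twist1 (66.5 ± 33.7; SD, n = 4 each). No neighbours in this order differ by more than the larger of their SDs, though the gap between Scx and Twist1 exceeds the SD of Scx. Each SD is taken over the same 4 libraries, so it does not measure the uncertainty of the order. The order depends on the libraries averaged. Over OE libraries 1 and 4 the same regions had mean percentiles of 95.6 at Twist1, 81.4 at Twist2, 80.3 at Hand2, 77.3 at Scx and 73.3 at Tcf15, so Twist1 came first. Over OE libraries 2 and 3 they had 99.3 at Twist2, 98.2 at Tcf15, 96.6 at Hand2, 86.2 at Scx and 37.3 at Twist1. Hand1, Msc and Tcf21 have no value in all 4 libraries.

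The position of a site went with which libraries ranked it higher. For these classes a gene end is either end of a gene, the start included. The Twist1 and Hand2 summits lie 737 and 700 bp after the gene start. Those of Tcf15 and Scx lie 594 and 69 bp above the lower-coordinate end of the gene. Of the 4 regions with a summit within 1 kb of a gene end, those at Twist1, Hand2 and Tcf15 ranked higher in OE libraries 1 and 4 than in OE libraries 2 and 3, by 58.3, 19.7 and 44.6 points, and the Scx region ranked lower by 8.98 points. Among all 3171 such regions 59.0% ranked higher in OE libraries 1 and 4, with a median difference of 7.18 points. Of the 5 regions outside genes only the Twist2 region before the start ranked higher in OE libraries 1 and 4, by 4.21 points, and the other 4 had differences of -16.3 to -55.6 points. Among all 3519 regions outside genes 6.34% ranked higher there, with a median of -30.1. The Twist2 region deep in the gene had -17.9 points, and the median of its class was -24.5. Near gene ends the median of the 4 regions was 32.2 points, against 7.18 for their class, and 4 of all 10 regions ranked higher in OE libraries 1 and 4, against 26.3% of all reproducible regions. These differences from all regions were not tested. Background pileup and list length differ between the same libraries, and their part in the ranks was not tested.

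**Figure D3:**
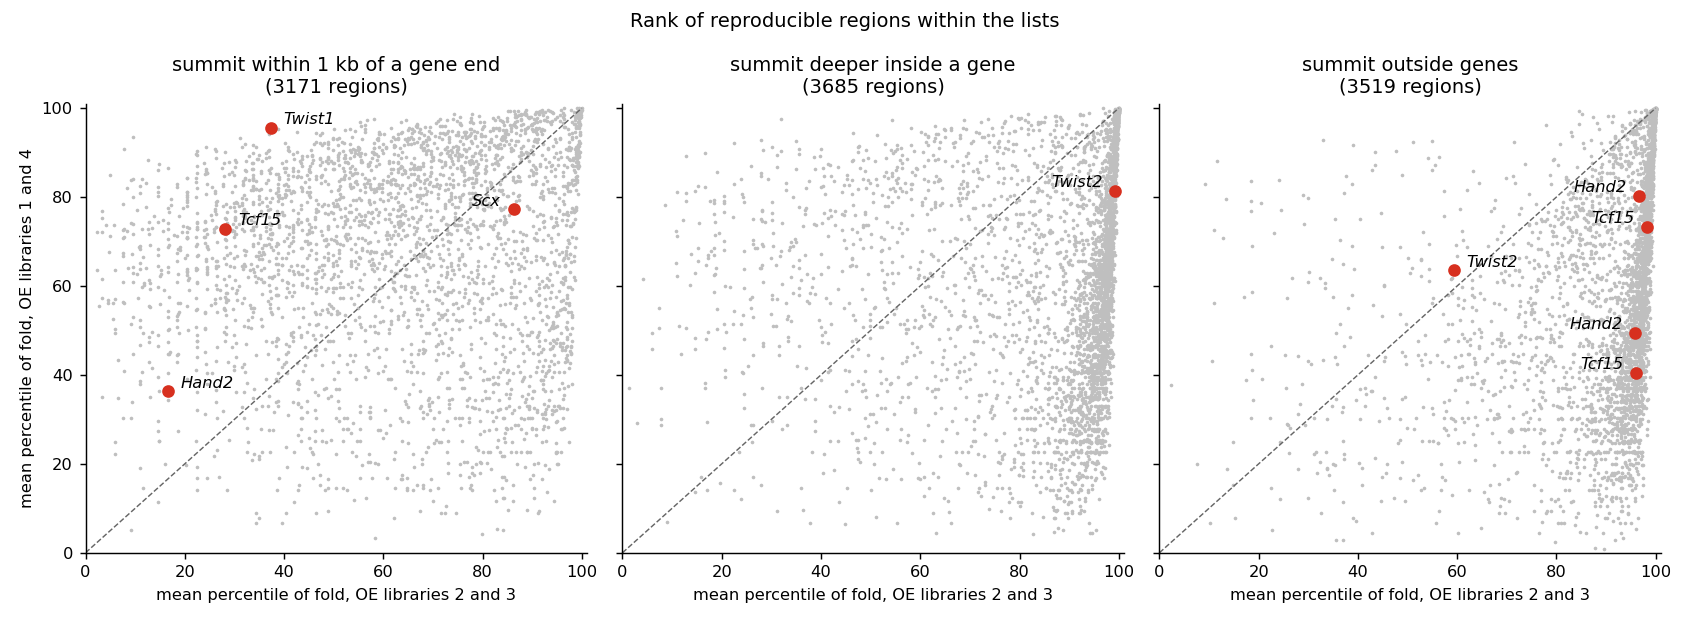
Mean percentile of fold in OE libraries 1 and 4 (y axis) against OE libraries 2 and 3 (x axis) for the 10375 reproducible regions (grey) and the 10 regions of the 8 genes (red), split by the position of the summit; the dashed line marks equal ranks. Twist1, Tcf15 and Hand2 regions near gene ends (either end, the start included) lie above the line, and the distal Hand2 and Tcf15 regions lie below it.

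Summits lay closer together at sites away from gene ends, where either end of a gene counts, the start included. The spread of the 4 summits was 9 to 140 bp in the 5 regions outside genes, 24 bp in the Twist2 body region and 106 to 533 bp in the 4 regions near gene ends. The medians over all reproducible regions were 51 bp outside genes, 64 bp deeper inside genes and 282 bp near gene ends. When summits of all 4 libraries had to lie within 100 bp, 4 of the 10 regions remained, 2 at Twist2 and 2 at Hand2. Twist1, Tcf15 and Scx then had none, although the Twist1 and the lower Tcf15 region missed that limit by little, at 106 and 102 bp.

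**Figure D4:**
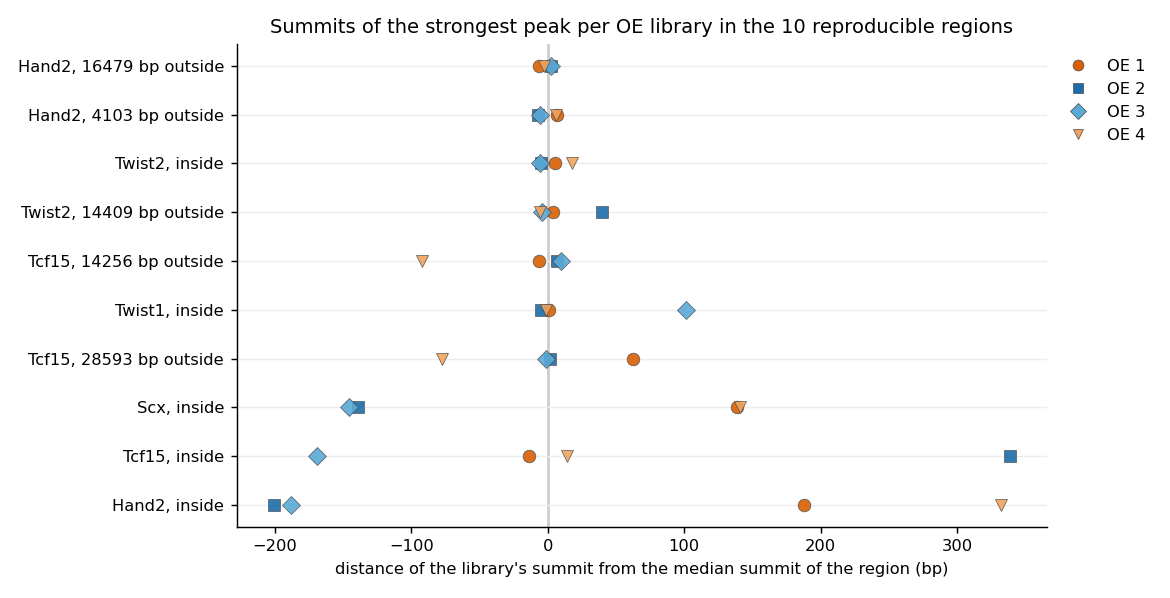
Distance (bp) of each OE library's summit from the median summit of the region, for the 10 reproducible regions ordered by spread; each symbol is 1 library. Twist2 summits and the Hand2 summits beyond the gene lie within 46 bp of each other, and the Hand2, Tcf15 and Scx regions inside genes are spread over 287 to 533 bp.

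Other class II bHLH genes of mesoderm, blood, muscle and nervous system were also counted: 4 of 16 had 1 reproducible region each, against 5 of 8 in the Twist set and 30.3% of all protein-coding genes. The region of Mesp2, a segmentation gene, lay inside the gene and had percentiles of 90.98, 81.3, 73.9 and 85.9 in OE libraries 1 to 4. That of Tal2, at 3536 bp, had 67.5, 97.5, 98.7 and 54.4, and that of Nhlh1, at 4932 bp, had 47.2, 37.6, 18.3 and 15.4. The region of Myod1, a muscle determination gene, lay at 27457 bp and had 74.8, 65.2, 67.3 and 63.1. The early mesoderm genes Mesp1 and Msgn1 and the muscle genes Myf5, Myf6 and Myog had none. The difference between the lists was not tested. All 3 genes for the E-protein partners Tcf3, Tcf4 and Tcf12 had a reproducible region, 5 in all.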

How the data were processed

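TWIST1 ChIP-seq peak lists of 7 libraries were used: 4 OE ChIP, 2 KO ChIP and 1 KO input, grouped by sample titles. Per the labels' protocols, chromatin was formaldehyde-crosslinked, sonicated and precipitated with a TWIST1 antibody. The submitters' processing notes name MACS2, BWA, Trimmomatic and Picard and the builds mm10 and GRCm38.p5. The sources used here do not give settings, versions or the caller's control, which decide what is listed. Peaks were called per library. The authors' caller wrote, for every peak, a linear ratio of pileup to background (fold enrichment). The deposited −log10 p-values and q-values come from the same caller, and the deposited score column was not used. The deposited summit position (in other units, bp from the peak start) placed each peak.

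Scripts ran under Python 3.11.15 (scipy 1.17.1, numpy 2.4.6). Coordinates count from 1. Gene positions came from RefSeq GRCm38.p6, and all 8 symbols matched. A summit inside several genes counted for each. A region's position is the summit of its peak with the highest percentile. Whole-number pileups at summits were recovered where fold and p-value matched within 0.002 on the −log10 scale, for 142 of 146 peaks at the 8 genes and at least 88.7% of each list. Some of the procedures were tested on simulated data. Genes and lists were chosen with earlier results of these data known. The named genes are the 8 members, their neighbours, the 3 genes nearest Twist1, and counts for 16 other class II bHLH and 3 partner genes. The design text calls the replicates biological replicate experiments, 4 in number, but 2 KO ChIP lists were analysed here.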

Additional observations from a re-analysis of the deposited data

How the results depend on the processing

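The difference in peaks between OE and KO libraries was 3.60 to 5.91 on the log2(peaks + 1) scale under the 15 alternatives (36.5 peaks without log2). Its direction could not reverse, because the KO counts were 0 in every alternative. The exact permutation p was 0.0667 to 0.5 (none with 1 KO library), and no alternative could bring it under 0.05. Leaving out each replicate gave 4.48 to 5.30. Replicate numbers 2 and 3 occur in both groups, but nothing ties same-numbered samples, and KO values of 0 give no deviations to correlate. With the replicate block the difference was 5.91 (exact sign-flip p = 0.5, the smallest for 2 pairs).

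The 10 reproducible regions became 6 at −log10 q of at least 10, 6 with equal list lengths, 4 with summits within 100 bp, 17 with at least 3 of 4 libraries, 49 with at least 2 of 4 and 50 with OE libraries 2 and 3 alone, the last chosen after seeing the data. Leaving out each replicate gave 10 to 16, the highest without OE library 4. The 5 genes with a region became 2 with summits within 100 bp, 8 with at least 2 of 4 libraries and 8 with OE libraries 2 and 3 alone, and were 5 to 7 when each replicate was left out. In the other 13 and 17 alternatives the counts moved by at most 1.5 times, among them other distances to a gene and regions with KO or input peaks kept. The fewest fragments at the summit of a peak at the 8 genes were 10 in OE library 1 and 11 in OE library 4, over backgrounds of 1.00 and 1.20.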
